A study of Mus musculus with 12 samples.

Results

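SOX genes encode transcription factors that share a DNA-binding domain, the HMG box, and act with partner proteins on the enhancers they bind. 10 mouse SOX genes were taken by symbol from the probe table: Sox1, Sox2, Sox3, Sox4, Sox7, Sox9, Sox11, Sox17, Sox18 and Sox21. They were measured with 19 probes of an Illumina bead array, on which short DNA probes bind labelled RNA. A probe was tested where its detection p-value, a rank of its signal against that array's negative control probes, was under 0.05 on at least 3 of 12 arrays. That left 17 probes of 9 SOX genes among 21051 probes and 11124 named genes. Sox1, a neural gene of the SOXB1 group, had 1 probe, which was detected on 0 of 12 arrays, so no level is given for it.

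The arrays held epiblast RNA of mouse embryos collected at E7.75, late in gastrulation, cut into an anterior and a posterior part. The 4 groups of 3 arrays were knockout posterior (Dkk-/-), control posterior (Dkk+/+), knockout anterior (Dkk-/-) and control anterior (Dkk+/+). No treatment was given in the labels, and the sample codes point to Dkk1, the gene of a secreted Wnt antagonist. The treatment note mentions 4 genotypes and spells out the ones above, and the sources used here give neither the allele nor the number of embryos behind an array. In such bulk tissue, fewer cells of a type and less RNA per cell cannot be told apart. The labels do not say whether replicates came from separate embryos, so p-values here cover the scatter of the arrays alone. Xist and Eif2s3y, genes whose levels differ between the sexes, varied within groups (values below), so the arrays of a group did not all hold RNA of the same make-up.

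Knockout posterior replicate 2 was the dimmest array, with a mean intensity of 189, and control anterior replicate 2 the brightest, with 693, and 36.2% to 42.3% of probes were detected. The Dkk1 probe read 4.75, 4.31 and 4.46 in knockout posterior arrays, against 5.05, 5.12 and 4.64 in control posterior arrays. Anterior readings were 6, 6.27 and 6.17 in knockout arrays, against 6.1, 5.78 and 6.06 in control arrays (log2 normalized intensity, as are all levels below). The groups overlapped in both regions, and the sources used here do not say where this probe lies relative to the deletion. It therefore does not check the genotype labels, and "knockout" means the arrays labelled so. Epiblast markers were detected in every group (7 of 7 genes, but 6 of 7 in knockout posterior arrays). Their sum was 17183 to 21978 in knockout posterior and 26023 to 27330 in control posterior arrays (linear normalized intensity). In the anterior region it was 20988 to 21726 in knockout and 24774 to 27599 in control arrays. The sum was thus lower in knockout arrays of both regions, and Dnmt3b was its brightest gene. None of these genes was called between genotypes, and Cdh1 went the other way (average change 0.15). Primitive streak markers summed to 13965 to 16761 in knockout posterior arrays and 15191 to 15293 in control posterior arrays, against 1628 to 2367 in knockout anterior arrays and 1079 to 1155 in control anterior arrays (linear normalized intensity, 5 of 6 genes tested). The cut between the regions was thus visible in both genotypes. All 9 visceral endoderm markers, such as Ttr and Apoa1, were also detected in every group, although the labels name only epiblast. Their sum was 48130 to 52253 in knockout posterior, 49774 to 52358 in control posterior, 51341 to 59336 in knockout anterior and 52634 to 59533 in control anterior arrays.

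The SOXB1 genes Sox1, Sox2 and Sox3 act in pluripotent and early neural cells, where SOX2 binds DNA beside POU factors such as OCT4 (Pou5f1). Sox21 belongs to the SOXB2 group, whose proteins mostly repress genes that SOXB1 proteins activate. Sox4 and Sox11 form part of the SOXC group of progenitors and young neurons, Sox9 of the SOXE group of neural crest and cartilage, and Sox7, Sox17 and Sox18 the SOXF group of endoderm and blood vessels. Wnt signals restrict anterior neural fate in the gastrula, and SOX17 is known to hold back TCF/beta-catenin activity.

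RefSeq promoter sequences (GRCm38.p6, 250 bases before to 50 after the gene's start, written on the strand of the gene) were matched for 5 of the 10 genes: Sox1, Sox2, Sox4, Sox11 and Sox21. The promoters of Sox2 (chr3:34649745-34650044, plus strand) and Sox21 (chr14:118236981-118237280, minus strand) are shown because these genes were called below. That of Sox11 (chr12:27342669-27342968, minus strand) is shown for contrast. Capitals mark a match to a SOX motif.
Sox2: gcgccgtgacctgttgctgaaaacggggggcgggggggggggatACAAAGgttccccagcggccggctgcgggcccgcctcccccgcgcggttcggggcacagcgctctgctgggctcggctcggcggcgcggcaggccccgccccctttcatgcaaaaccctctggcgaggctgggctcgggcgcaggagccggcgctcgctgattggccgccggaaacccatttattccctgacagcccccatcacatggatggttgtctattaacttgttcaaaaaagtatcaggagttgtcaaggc
Sox21: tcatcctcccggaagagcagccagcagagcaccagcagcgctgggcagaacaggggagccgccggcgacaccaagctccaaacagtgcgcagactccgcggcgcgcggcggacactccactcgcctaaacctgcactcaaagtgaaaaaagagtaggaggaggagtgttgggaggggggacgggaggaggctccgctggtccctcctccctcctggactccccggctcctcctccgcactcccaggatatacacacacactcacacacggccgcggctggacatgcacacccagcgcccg
Sox11: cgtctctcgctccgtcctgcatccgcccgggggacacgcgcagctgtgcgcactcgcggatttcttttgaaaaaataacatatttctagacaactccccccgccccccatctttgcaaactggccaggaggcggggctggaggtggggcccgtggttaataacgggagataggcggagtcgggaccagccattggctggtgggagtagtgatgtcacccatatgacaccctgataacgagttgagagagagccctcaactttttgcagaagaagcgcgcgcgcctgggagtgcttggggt

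These windows were rich in GC, with 66.3% and 27 CpG dinucleotides for Sox2, 65.7% and 22 for Sox21 and 58.7% and 21 for Sox11, beside a median of 52.7% and 7 over 32851 promoters of 300 bases. 3 motifs were searched on both strands: TCF/LEF (CTTTGAT), SOX (ACAATG or ACAAAG) and the POU octamer (ATGCAAAT). A SOX match lay 206 bases before the start of Sox2, and 28.6% of all promoters hold such a match. The octamer lay 18 bases after the start of Sox1, beside 1.74% of all promoters. No TCF/LEF match, which 3.73% of all promoters hold, lay in any of the 5 windows.

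Sox2, a factor of pluripotent cells and of the neural plate, was lower in knockout than in control arrays by its brighter probe. That probe read 5.31, 5.26 and 5.68 in knockout posterior arrays, against 6.29, 5.82 and 6.43 in control posterior arrays. Anterior readings were 6.5, 5.27 and 6.09 in knockout arrays, against 7.51, 7.67 and 7.01 in control arrays. Knockout arrays lay below all control arrays in both regions, with replicate 2 the lowest of the anterior ones. The change averaged over both regions was -1.10 (SE 0.20, adjusted p = 0.0447, limma), a 2.14-fold lower signal. It was -0.76 (SE 0.28, adjusted p = 0.423) in the posterior region and -1.44 (SE 0.28, adjusted p = 0.0659) in the anterior region, and neither of these passed the threshold of 0.05. The average change lost its call without any 1 of 10 of the 12 arrays (adjusted p 0.0361 to 0.141 over all 12), every one but knockout anterior replicate 1 and control anterior replicate 3. With 1 probe a gene in the fit, which tests fewer features, the anterior change was called (adjusted p = 0.0453). Of 24 alternative settings, those with an array left out among them, 9 kept the average call and 15 lost it (adjusted p up to 0.37 from limma). Among those that lost it were cyclic loess, either median scaling, no filter and Xist as a covariate.

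Extraembryonic ectoderm, the neighbouring tissue, is also known to express Sox2, and the sum of its markers was also lower in knockout anterior arrays. All 6 were tested, with 5 detected in knockout posterior arrays against 4 in control posterior arrays, and 5 in knockout anterior arrays against 6 in control anterior arrays. Their sum was 839 to 1038 in knockout posterior and 709 to 763 in control posterior arrays, and 654 to 923 in knockout anterior and 1016 to 1250 in control anterior arrays. Rhox9, a homeobox gene, was at least 1.49-fold lower in knockout than in control anterior arrays (adjusted p = 0.0303), and Elf5, a trophoblast factor gene, gave -2.01 (SE 0.40, adjusted p = 0.0696). In the posterior region Rhox9 gave 0.33 (adjusted p = 0.578) and Elf5 0.49 (adjusted p = 0.716). Neither gene was detected on any control posterior array, so a lower knockout level could not have been seen there. Of the other markers, Tex19.1 gave -0.878 in the anterior and 0.102 in the posterior region. Rhox6 (-0.083), Ascl2 (-0.172) and Plac1 (-0.127) had smaller anterior changes. In the posterior region these gave 0.547, 0.11 and 0.426, in that order. None of these changes was called. The part of such tissue in the anterior Sox2 values was not tested. Nor was that of epiblast cells, whose marker sum was lower in knockout arrays of both regions (values above).

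The second Sox2 probe did not show this difference at that size. It read 4.78, 4.4 and 4.84 in knockout posterior arrays, where it was detected on none, against 4.94, 4.7 and 5.55 in control posterior arrays, where 2 of 3 detected it. Anterior arrays gave 5.43, 6.63 and 5.9 in knockout arrays, against 5.91, 6.12 and 6.44 in control arrays. Genotypes overlapped in both regions, and knockout anterior replicate 2, the lowest of its group by the brighter probe, was the highest by this one. The average change between genotypes was -0.28 (SE 0.20, adjusted p = 0.599). Between the probes the genotype change differed by -0.82 on the log2 scale (exact two-sided permutation test within regions, p = 0.045, adjusted p = 0.315 over 14 such tests of 7 genes). The disagreement thus did not pass the threshold after adjustment. The smallest p that 400 arrangements allow is 0.005. Over 12 arrays the levels of the 2 probes had a Pearson correlation of 0.50.

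Along the axis, Sox2 was lower in posterior arrays. In control arrays the brighter probe averaged 6.18 ± 0.32 in the posterior and 7.40 ± 0.34 in the anterior region (SD, n = 3 each), a change of -1.22 (SE 0.28, adjusted p = 0.032 from limma). With the replicate number as a block within genotype this call was lost (adjusted p = 0.0654). Of the extraembryonic ectoderm markers, Elf5 was also lower in control posterior arrays, by at least 4.98-fold (adjusted p = 0.00117). So were Rhox9, by at least 1.56-fold (adjusted p = 0.00458), and Tex19.1, by a change of -1.23 (adjusted p = 0.0185). Rhox6 (-0.675, adjusted p = 0.153) and Ascl2 (-0.168, adjusted p = 0.737) were not called. Plac1 went the other way and was not called either (0.255, adjusted p = 0.495). The part of this tissue in the Sox2 values was not tested. The second Sox2 probe gave -1.09 (SE 0.29, adjusted p = 0.0618), close to that size but not called. In knockout arrays the brighter probe gave -0.53 (SE 0.28, adjusted p = 0.306), with overlapping groups. The second probe was there at least 2.02-fold lower in the posterior region (adjusted p = 0.0196), a bound set by the lowest signal detected on each posterior array. Its means were 4.67 in knockout posterior and 5.99 in knockout anterior arrays. The group means of the brighter probe ran, from low to high, knockout posterior (5.42 ± 0.23), knockout anterior (5.95 ± 0.63), control posterior (6.18 ± 0.32) and control anterior (7.40 ± 0.34). The arrays of neighbours in this order overlapped except between control posterior and control anterior.

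Sox3, the X-linked SOXB1 gene, had 1 probe and was not called in any comparison. Its levels were 5.66, 5.24 and 5.75 in knockout posterior arrays, against 5.91, 6.1 and 5.87 in control posterior arrays. Anterior levels were 5.92, 5.88 and 6.21 in knockout arrays, against 5.71, 6.06 and 6.13 in control arrays. All knockout posterior arrays lay below the control ones, with a change of -0.41 (SE 0.17, adjusted p = 0.481), while the anterior arrays overlapped (0.04, SE 0.17). Xist, the RNA of the inactive X chromosome, varied widely within the control groups. It read 9.16, 9.52 and 10.02 in knockout posterior and 9.2, 4.45 and 7.96 in control posterior arrays. Anterior arrays gave 9.06, 9.59 and 10.22 in knockout and 9.47, 4.36 and 8.12 in control arrays. Control replicate 2 was low in both regions. With Xist as a covariate the posterior Sox3 change was -0.32 (adjusted p = 0.951), and without control posterior replicate 2 it was -0.33 (adjusted p = 0.848).

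**Figure D1:**
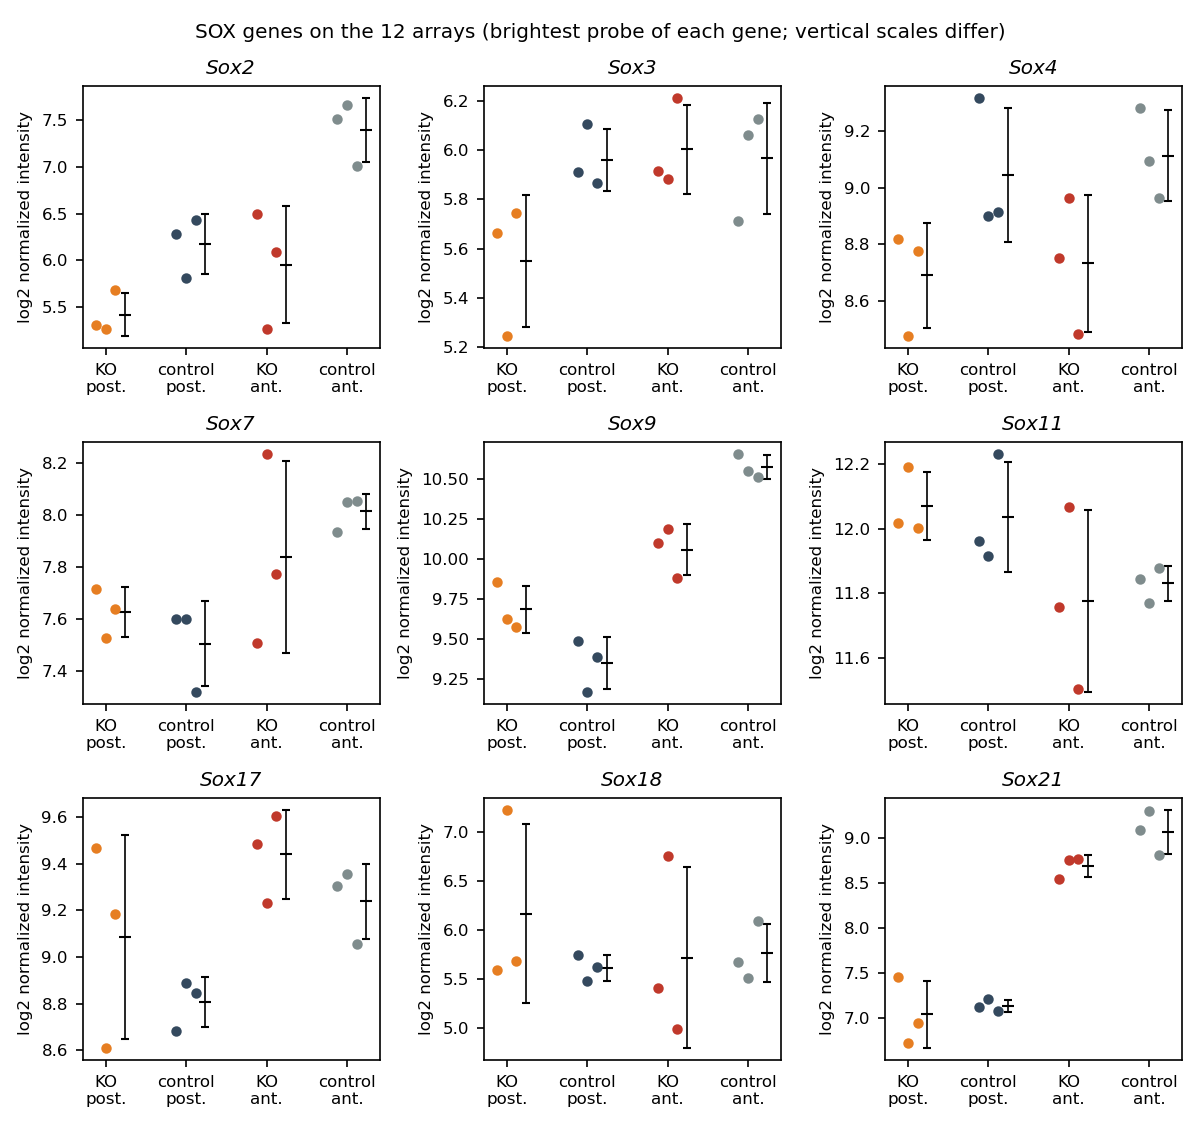
Log2 normalized intensity of the brightest probe of each of 9 SOX genes on the 12 arrays, with knockout and control posterior arrays on the left and knockout and control anterior arrays on the right of each panel. Points are arrays, bars show mean ± SD of 3 arrays, and vertical scales differ; Sox21 and Sox9 show the separation of regions in control arrays, and Sox2 that of genotypes.

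Sox21 had the largest regional change of the 9 genes, by their brightest probes, in both genotypes. Its brighter probe read 7.46, 6.73 and 6.95 in knockout posterior arrays, against 8.55, 8.75 and 8.77 in knockout anterior arrays. In control arrays it read 7.12, 7.21 and 7.08 in the posterior region, against 9.09, 9.29 and 8.8 in the anterior region. Posterior and anterior arrays did not overlap in either genotype. The posterior level was lower by a change of -1.65 (SE 0.19, adjusted p = 0.000174) in knockout arrays, which is 3.13-fold. In control arrays the change was -1.92 (SE 0.19, adjusted p = 3.53e-05), or 3.8-fold. Both calls held with each of the 12 arrays left out in turn. Between genotypes the change was -0.09 (SE 0.19, adjusted p = 0.897) in the posterior region and -0.37 (SE 0.19, adjusted p = 0.651) in the anterior region. All knockout anterior arrays lay just below the control ones.

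The other probes of Sox21 were dim. The second probe carries a transcript accession that matched no gene of the RefSeq table, so its target was not checked. It was detected on 5 of 12 arrays and was also lower in control posterior than in control anterior arrays, by a change of -0.77 (SE 0.19, adjusted p = 0.0422). Its readings were 4.61, 4.72 and 5.14 in control posterior arrays, against 5.59, 5.53 and 5.66 in control anterior arrays. The call was lost with 7 of the 12 arrays left out in turn (control posterior replicates 1 and 2, any control anterior array, knockout posterior replicate 3 or knockout anterior replicate 1), with adjusted p 0.0268 to 0.178 over all 12. In knockout arrays it gave -0.31 (SE 0.19, adjusted p = 0.376), with 0 of 3 posterior and 1 of 3 anterior arrays detected. The posterior change of the brighter probe exceeded that of this one by -1.25 (exact two-sided permutation test within genotypes, p = 0.005, adjusted p = 0.07). That p is the smallest the 400 arrangements can give. The remaining probe was detected on 0 of 12 arrays.

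Sox9, a factor of neural crest and cartilage progenitors, was lower in control posterior than in control anterior arrays by both of its probes. The brighter probe read 9.49, 9.17 and 9.39 in control posterior arrays, against 10.66, 10.55 and 10.51 in control anterior arrays. The change was -1.22 (SE 0.14, adjusted p = 2e-04), or 2.33-fold lower. By the second probe it was -1.60 (SE 0.19, adjusted p = 0.00018), or 3.04-fold lower. In knockout arrays the regions lay closer together, with 9.85, 9.63 and 9.57 in the posterior and 10.1, 10.19 and 9.88 in the anterior region. They did not overlap, but the change of -0.37 (SE 0.14) was not called (adjusted p = 0.155). The second probe gave -0.44 (SE 0.19, adjusted p = 0.191).

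By the brighter probe, knockout arrays thus stood on opposite sides of control arrays in the 2 regions. In the posterior region all 3 knockout arrays were above the control ones, by a change of 0.34 (SE 0.14, adjusted p = 0.484). All 3 were below them in the anterior region, by -0.52 (SE 0.14, adjusted p = 0.278). Under median scaling over all probes the posterior change turned to -0.55. Over the alternatives, the median of all probes in that posterior contrast ran from -0.621 to 0.222. By the second probe the genotypes overlapped in the posterior region (0.53, SE 0.19, adjusted p = 0.419). They did not overlap in the anterior region by that probe (-0.63, SE 0.19, adjusted p = 0.333). The posterior minus the anterior genotype change was 0.85 (SE 0.20) by the brighter and 1.16 (SE 0.26) by the second probe. Neither passed the threshold over all probes (adjusted p = 0.498 and 0.442, limma). The 2 Sox9 probes had a Pearson correlation of 0.94 over the 12 arrays, the highest of the 7 genes with several tested probes. Its group means ran, from low to high, control posterior (9.35 ± 0.16), knockout posterior (9.69 ± 0.15), knockout anterior (10.06 ± 0.16) and control anterior (10.57 ± 0.07), and no neighbours in this order overlapped. Of the neural crest markers, 2 of 4 (Tfap2a and Snai2) were tested and detected in every group, and Foxd3 and Pax3 were not tested. Their sum was 138 to 194 in knockout posterior, 160 to 228 in control posterior, 226 to 411 in knockout anterior and 356 to 396 in control anterior arrays. The part of such cells in the Sox9 values was not tested.

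**Figure D2:**
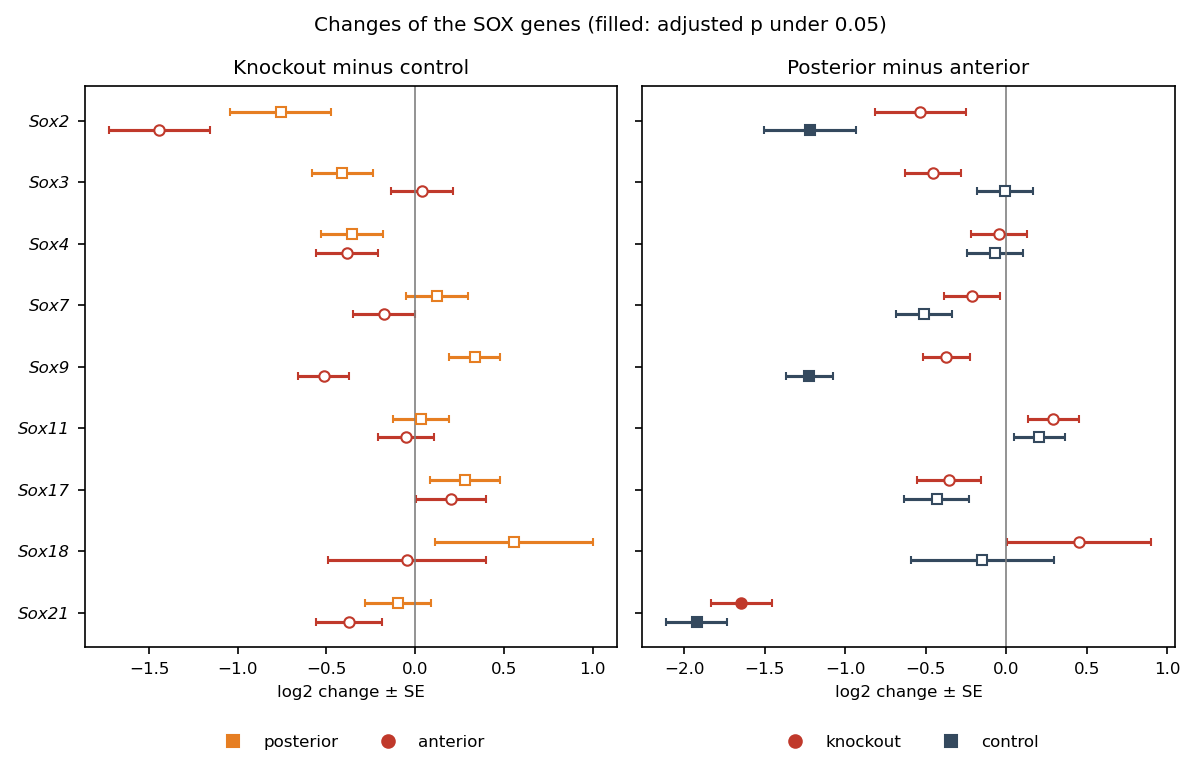
Log2 change ± SE of the brightest probe of each SOX gene, knockout minus control in the left panel (posterior squares, anterior circles) and posterior minus anterior in the right panel (knockout circles, control squares). Filled symbols mark an adjusted p under 0.05; they are Sox21 in both genotypes and Sox2 and Sox9 in control arrays.

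The SOXC genes, which are active in progenitors, were not called by their brightest probes. Sox4 read 8.82, 8.47 and 8.78 in knockout posterior arrays, against 9.32, 8.9 and 8.91 in control posterior arrays. Anterior readings were 8.75, 8.96 and 8.48 in knockout arrays, against 9.28, 9.09 and 8.97 in control arrays. Knockout arrays lay below control arrays in both regions, with the closest anterior pair almost level. The average change was -0.37 (SE 0.12, adjusted p = 0.251), with -0.36 in the posterior and -0.38 in the anterior region. The regions overlapped in both genotypes. The second Sox4 probe was near the detection limit (7 of 12 arrays), gave an average genotype change of -0.14 (SE 0.19, adjusted p = 0.798) and did not follow the first (Pearson correlation -0.03 over 12 arrays).

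Sox11, which acts with Sox4 in young neurons, read 12.02, 12.19 and 12 in knockout posterior arrays, against 11.96, 11.91 and 12.23 in control posterior arrays. Anterior arrays gave 11.76, 12.06 and 11.5 in knockout arrays, against 11.85, 11.77 and 11.88 in control arrays. Genotypes overlapped in both regions, with changes of 0.03 (SE 0.16) in the posterior and -0.05 (SE 0.16) in the anterior region. Posterior levels of control arrays lay above anterior ones without overlap, by 0.21 (SE 0.16, adjusted p = 0.638). In knockout arrays the regions overlapped (0.29, SE 0.16, adjusted p = 0.313). A second probe gave 0.11 (SE 0.17) and 0.26 (SE 0.17) for the posterior change in knockout and control arrays. The other, dim probe went the other way in knockout arrays, where it was detected on 0 of 3 posterior and 3 of 3 anterior arrays. It was at least 1.28-fold lower in the posterior region (adjusted p = 0.0421), with means of 4.49 and 5.33 in knockout posterior and knockout anterior arrays. That call held with 3 of the 12 arrays left out in turn and was lost with each of the other 9 (change -1.06 to -0.61). It did not follow the brightest probe (Pearson correlation -0.38 over 12 arrays).

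**Figure D3:**
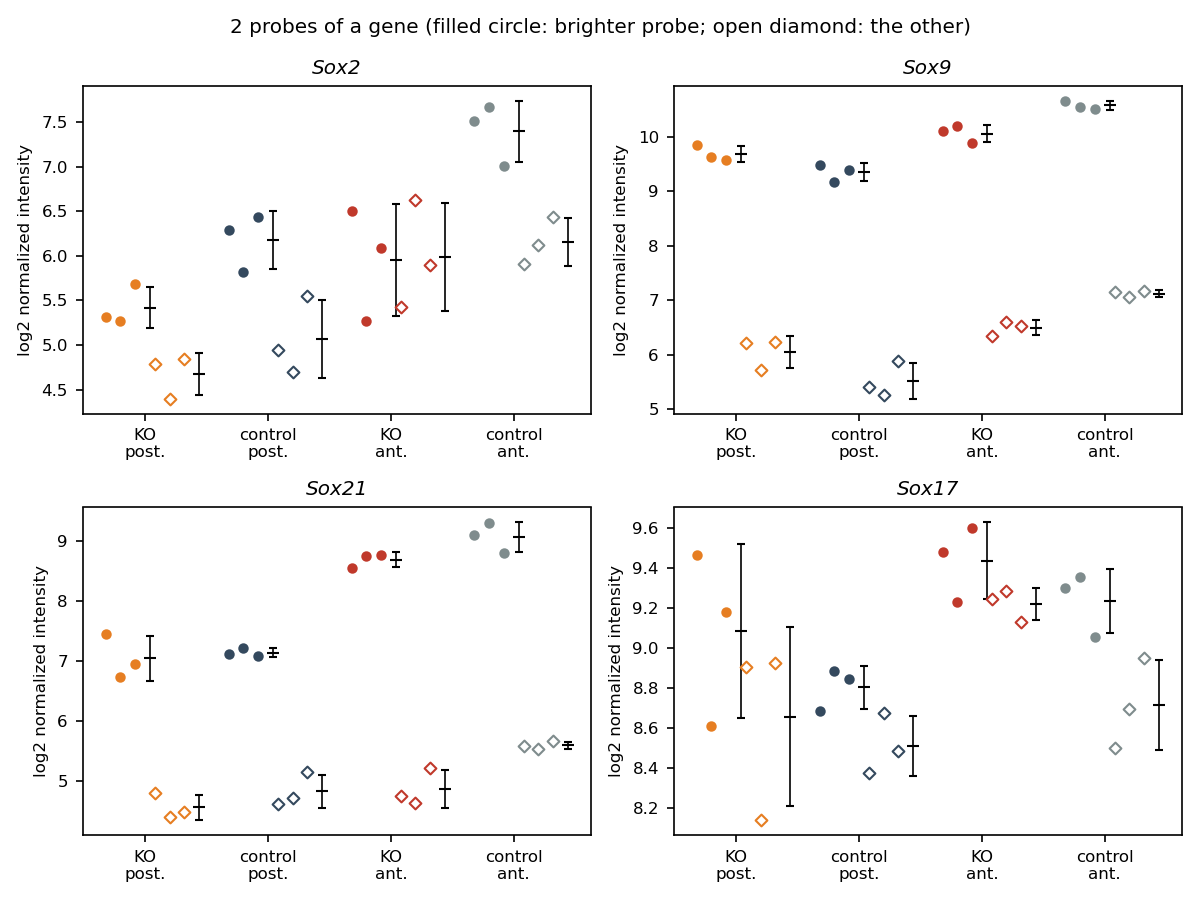
The brighter probe (filled circles) and the second probe (open diamonds) of Sox2, Sox9, Sox21 and Sox17 on the 12 arrays, as log2 normalized intensity; bars show mean ± SD of 3 arrays. The 2 Sox9 probes share their order of groups, while the second Sox2 probe shows overlapping genotypes in both regions.

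Of the SOXF genes, Sox17, a driver of definitive endoderm, was not called in any comparison. Its brighter probe read 9.47, 8.61 and 9.18 in knockout posterior arrays, against 8.68, 8.89 and 8.85 in control posterior arrays. Anterior levels were 9.48, 9.23 and 9.6 in knockout arrays, against 9.3, 9.36 and 9.05 in control arrays. Posterior control arrays lay below all anterior control arrays, by a change of -0.43 (SE 0.20, adjusted p = 0.346), whereas in knockout arrays the regions overlapped (-0.35, SE 0.20, adjusted p = 0.334). Genotypes overlapped in both regions by this probe, with an average change of 0.24 (SE 0.14, adjusted p = 0.514). The second probe read 9.25, 9.29 and 9.13 in knockout anterior arrays, against 8.5, 8.7 and 8.95 in control anterior arrays. These groups did not overlap, and the change was 0.51 (SE 0.20, adjusted p = 0.569). Definitive endoderm markers (4 of 5 tested, all detected in every group) summed to 3902 to 4770 in knockout posterior, 2375 to 3754 in control posterior, 6177 to 9837 in knockout anterior and 5910 to 6203 in control anterior arrays. Trh was the brightest gene of this sum. Knockout against control, it gave 0.664 in the posterior and 0.484 in the anterior region, and Cer1 gave 0.137 and 0.276. Hhex went the other way (-0.299 and -0.636), and Foxa2 gave -0.224 and 0.157. None of these changes was called. The part of definitive endoderm in the Sox17 values was not tested. Nor was that of the visceral endoderm given above, in which Sox17 and Sox7 are also known to be expressed.

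Sox7, known from endoderm and vessels, read 7.71, 7.53 and 7.64 in knockout posterior arrays, against 7.6, 7.6 and 7.32 in control posterior arrays. Anterior levels were 7.51, 8.23 and 7.77 in knockout arrays, against 7.94, 8.05 and 8.05 in control arrays. The 2 regions of control arrays did not overlap (change -0.51, SE 0.17, adjusted p = 0.169), and its second probe gave only -0.09 (SE 0.19, adjusted p = 0.902). Genotypes overlapped in both regions.

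Sox18, known from vessels and lymphatics, read 5.59, 7.23 and 5.68 in knockout posterior arrays, against 5.74, 5.47 and 5.62 in control posterior arrays. Anterior readings were 5.4, 6.76 and 4.99 in knockout arrays, against 5.68, 5.51 and 6.09 in control arrays. Knockout replicate 2 was the highest array of its group in both regions, and these 2 arrays also had low weights when limma estimated array quality (0.349 posterior, 0.307 anterior). Groups overlapped in every comparison, and the average genotype change was 0.26 (SE 0.32, adjusted p = 0.774). Endothelial markers (6 of 7 tested, all detected in every group) summed to 2355 to 2712 in knockout posterior, 1899 to 2327 in control posterior, 2784 to 3781 in knockout anterior and 2201 to 2695 in control anterior arrays. Etv2 was by far the brightest of these markers, with genotype changes of 0.515 (anterior) and 0.289 (posterior). The remaining anterior changes were negative: Kdr -0.011, Tal1 -0.071, Cdh5 -0.015, Pecam1 -0.276 and Tek -0.226. Among posterior arrays Tal1 (0.065), Pecam1 (0.093) and Tek (0.228) had positive changes, and Kdr (-0.116) and Cdh5 (-0.018) negative ones. No such change was called. The part of endothelial cells in the Sox18 values was not tested.

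Counted by the brightest probe of each gene, 0 of the 9 SOX genes changed between genotypes in the posterior region, beside 0% of all probes. The other count of 0 was in the anterior region, beside 0.181% of all probes in either direction and 0.0665% lower. At an unadjusted p under 0.05 in limma, 3 of 9 genes passed in the posterior region (Sox2, Sox3 and Sox9), beside 9.73% of all probes, and 3 of 9 in the anterior region (Sox2, Sox4 and Sox9), beside 8.01%. Averaged over both regions, 1 of 9 (Sox2) was lower, beside 0.152% of all probes. Posterior against anterior, 1 of 9 (Sox21) was lower in knockout arrays, beside 3.22% of all probes lower and 2.31% higher. In control arrays 3 of 9 (Sox2, Sox9 and Sox21) were lower, beside 1.43% of all probes lower and 1.82% higher. For the posterior minus the anterior genotype change 0 of 9 were called, beside 0.00475% of all probes, with 1 of 9 (Sox9) at an unadjusted p under 0.05, beside 5.53%. None was called higher in any of the 6 comparisons. The regional comparisons of knockout and control share no arrays, whereas each shares arrays with the comparisons between genotypes.

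Arrays of the 2 genotypes did not overlap for 4 of 9 genes in the posterior region (Sox2, Sox3, Sox4 and Sox9, beside 15.7% of all probes) and for 4 of 9 in the anterior region (Sox2, Sox4, Sox9 and Sox21, beside 13.4%). Arrays of the 2 regions did not overlap for 3 of 9 genes in knockout arrays (Sox3, Sox9 and Sox21, beside 23.8% of all probes) and 6 of 9 in control arrays (Sox2, Sox7, Sox9, Sox11, Sox17 and Sox21, beside 24.6%). The median change of the 9 genes was 0.03 between genotypes in the posterior and -0.17 in the anterior region, beside -0.03 and 0 for all probes. Posterior against anterior it was -0.35 in knockout and -0.43 in control arrays, beside -0.02 and 0 for all probes.

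Of 10 other SOX genes, 5 were tested. Sox12, the remaining SOXC gene, was lower in knockout posterior than in knockout anterior arrays (-0.62, SE 0.13, adjusted p = 0.0188), as was Sox8 of the SOXE group (at least 1.06-fold, adjusted p = 0.0242). In control arrays their changes were -0.48 (adjusted p = 0.0822) and -0.30 (adjusted p = 0.391). Sox13, a SOXD gene, gave 0.34 in knockout arrays (adjusted p = 0.391) and 0.65 in control arrays (adjusted p = 0.139). Sox5, also SOXD, gave -0.61 in knockout and -0.77 in control arrays (adjusted p = 0.23 and 0.192), and Sox14, a SOXB2 gene, gave 0.02 and -0.27. Between genotypes 0 of the 5 were called by limma, with 0 in the posterior and 1 in the anterior region at an unadjusted p under 0.05, a level that 9.73% and 8.01% of all probes passed. Sox6, Sox10, Sox15, Sox30 and Sry did not reach detection on 3 arrays.

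POU factors and other proteins known to act with SOXB1 proteins had 9 of 15 genes tested. Pou3f1, a POU factor of the anterior epiblast and neural plate, was lower in knockout arrays, by -1.09 (SE 0.18, adjusted p = 0.0336) in the anterior region and -0.97 (SE 0.13, adjusted p = 0.0151) on average. It was the only gene of the list called between genotypes. At an unadjusted p under 0.05 in limma, 4 of the 9 passed in the posterior and 3 in the anterior region, beside 9.73% and 8.01% of all probes. Posterior against anterior, Pou3f1 was lower in both genotypes (-1.88 in knockout, -2.10 in control) and Pou5f1, the pluripotency factor OCT4, was higher in both (0.90 and 0.77). In that regional comparison 4 of the 9 were lower in knockout arrays, among them Zfp281 (-0.80) and Sall4 (-0.50). In control arrays 2 were lower, Pou3f1 and Esrrb (-2.12). Median regional changes of the 9 were -0.76 in knockout and -0.46 in control arrays. Of all probes, 3.22% were lower and 2.31% higher in knockout posterior arrays, and 1.43% and 1.82% in control posterior arrays. These shares also stand beside the regional counts of the lists below.

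Genes known as SOXB1 or SOX2 targets had 9 of 15 tested, and 0 of them were called between genotypes by limma, with 5 in the posterior and 3 in the anterior region at an unadjusted p under 0.05, beside 9.73% and 8.01% of all probes. The average change with the smallest adjusted p was that of Otx2, the head and forebrain factor (-1.77, SE 0.35, adjusted p = 0.0632). Posterior against anterior, 3 were lower and 2 higher in knockout arrays, and 4 lower and 1 higher in control arrays. Otx2 (-4.10 in knockout, -2.75 in control), Utf1 (-1.29 and -1.71) and Shh (-1.03 and -1.64) were lower in both genotypes. Nes, which encodes the neural filament nestin, was higher in knockout arrays (1.05, adjusted p = 0.00828). Fgf4, named after its values were seen, was the gene higher in control arrays, by at least 1.12-fold (adjusted p = 0.026).

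The early neural plate list had 11 of 16 genes tested. Of these, 2 were lower in knockout than in control anterior arrays, the LIM factor gene Lhx5 (-1.21, SE 0.19, adjusted p = 0.0252) and Pou3f1, and 1 was higher there, Gbx2 (1.02, SE 0.18, adjusted p = 0.0467), a factor of the hindbrain and posterior neural plate. On average over the regions 3 were lower, with Irx3 beside those (-0.81, SE 0.13, adjusted p = 0.0266). Posterior against anterior, 4 were lower and 2 higher in knockout arrays, and 5 lower and 1 higher in control arrays. Irx3 (-2.30 in knockout, -1.57 in control) and Lhx5 were lower, and Gbx2 was higher (1.27 in knockout, 2.38 in control). The median change between genotypes in the anterior region was -0.44, beside -0.004 for all probes. At an unadjusted p under 0.05 in limma, 5 of the 11 passed in the posterior and 7 in the anterior region, beside 9.73% and 8.01% of all probes. Anterior epiblast markers (3 of 4 tested) summed to 65.1 to 219 in knockout posterior, 386 to 475 in control posterior, 1156 to 1464 in knockout anterior and 2541 to 2911 in control anterior arrays. Otx2 was the brightest gene of these sums, which followed the same order of groups as the second Sox2 probe. Hesx1 alone did not, as it gave 0.055 between genotypes in the posterior region, with overlapping groups. The brighter Sox2 probe had another order, with knockout anterior below control posterior arrays on average (5.95 against 6.18). The part of such cells in the Sox2 values was not tested.

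Caudal epiblast genes had 12 of 14 tested, and 11 were higher in posterior arrays of knockout embryos and 10 in those of control embryos. Wnt3a, a Wnt ligand of the streak, was higher by 5.34 in knockout and 6.30 in control arrays, and Tbx6, a T-box factor of presomitic mesoderm, by 2.85 and 4.02. Cyp26a1, which degrades retinoic acid and was named after its values were seen, was lower in both (-1.36 each). Tbx6 was also higher in knockout than in control anterior arrays (1.36, SE 0.18, adjusted p = 0.00938), the only call between genotypes there. At an unadjusted p under 0.05 in limma, 2 of the 12 passed in the posterior and 9 in the anterior region, beside 9.73% and 8.01% of all probes. The median change of the 12 between genotypes was 0.109 in the posterior and 0.708 in the anterior region, beside -0.03 and -0.004 for all probes. SOX2 and Wnt signals are both known from the axial progenitors in this tissue.

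Definitive endoderm genes and SOX17 targets had 11 of 13 tested, with 0 called between genotypes by limma and 1 in the posterior and 3 in the anterior region at an unadjusted p under 0.05, beside 9.73% and 8.01% of all probes. The smallest adjusted p of an average change was that of Hhex (-0.47, adjusted p = 0.105). Posterior against anterior, 6 were lower in knockout and 3 in control arrays, led by the secreted antagonist gene Cer1 (-3.35 in knockout, -3.21 in control), Hhex (-0.85 and -1.18) and Trh (-0.80 and -0.98). Among endothelial genes and SOXF partners (13 of 16 tested), Mef2c, which encodes a MADS-box partner of SOX18, was lower in both genotypes (-1.65 and -1.13). Notch1, a receptor gene, was higher in control posterior arrays (1.09) and in knockout anterior arrays against control (1.02, SE 0.17, adjusted p = 0.0325).

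Neural crest genes and SOXE partners had 6 of 13 tested. Msx1 (1.27 in knockout, 0.86 in control) and Snai1 (0.87 and 0.98) were higher in posterior arrays, and Snai2 (-1.13 and -1.19) was lower. Twist1, a factor of cranial mesenchyme, was higher in knockout than in control anterior arrays (1.19, SE 0.17, adjusted p = 0.0127). Of the node and notochord genes (9 of 10 tested), Col2a1, a collagen gene that SOX9 activates in cartilage, was lower in posterior arrays (-1.90 in knockout, -1.65 in control). In knockout arrays 3 were higher, with Dynlrb2 in the lead (2.65, adjusted p = 0.000883). Of the SOXC targets and neuronal genes (6 of 10 tested), Elavl3 was lower in control posterior arrays (-1.11, adjusted p = 0.0232), the only call of that list in the 6 comparisons.

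The genes whose levels followed each SOX gene most closely were ranked by Pearson correlation over the 12 arrays among 11115 other named genes. The points share their region, genotype and array, so the values are descriptions. Sox21 had Foxd4 (0.98), Sfrp1 (0.97) and Robo1 (0.969), and Sox9 had Shisa2 (0.95), Foxd4 (0.946) and Myof (0.943). Foxd4, a forkhead factor gene, was shared by both lists, and Sox9 and Sox21 had a correlation of 0.885 with each other, the highest among the 9 genes. Sfrp1 and Shisa2 encode inhibitors of Wnt signalling (Shisa2 is known for this from Xenopus). Sox2 had 4631434O19Rik (0.916), Pim2 (0.915) and Rsrc2 (0.891), and its correlation was 0.635 with Sox21 and 0.629 with Sox9. For the other 6 genes the closest were Fxr1h for Sox3 (0.889), Rgl2 for Sox4 (0.9), C730009D12 for Sox7 (0.927), Inpp5a for Sox11 (0.911), A530057A03Rik for Sox17 (0.851) and Cd33 for Sox18 (0.94). The Sox18 values rest on the high readings of knockout replicate 2 in both regions.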

How the data were processed

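Gene expression was measured in 12 arrays of mouse epiblast (2 genotypes, 2 regions, 3 arrays each). The deposited table gives linear probe intensity, not background-subtracted or scaled, and a detection p-value per probe and array, per the file headers and its values. The submitters' processing notes name GenomeStudio. The array model, the scanner and the software of the series matrix, whose deposited log2 values (33557 probes) served as an alternative, are not given in the sources used.

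The neqc function (offset 16) corrected background, quantile normalized and took log2, in limma 3.58.1 (R 4.3.3). Probes were named by the series matrix's probe table, updated through RefSeq (GRCm38.p6): 30058 of 46237 probes carried 1 gene name and 16179 none. A linear model with 4 group means and moderated variances was fitted to the 21051 tested probes, named or not. 6 contrasts were tested (knockout against control in each region and on average, posterior against anterior in each genotype, and the interaction), with Benjamini-Hochberg adjustment over all probes. A gene was counted by its probe of highest mean. Where no array of a group detected a probe, the fold is a lower bound. The fit was tested on simulated data.

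The members, the gene lists and the comparisons were chosen with earlier results of these data known. The text names all members, all genes of the list of other SOX genes, Dkk1, Xist, the closest genes by correlation, and of each other list at most 4 called genes per contrast (or 1 not called). Same-numbered arrays did not deviate together in every pair (correlation -0.14 to 0.209 between regions), so the numbers were not used as pairs. Xist and Eif2s3y did match by number between regions, a hint of pairing from the data, not from the design. Alternatives were other background, scaling, filter, variance and weighting choices, 1 probe a gene, blocks, Xist as a covariate and each array left out. The number of arrays limits the precision.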

Additional observations from a re-analysis of the deposited data

Results flagged for a closer look

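Sox9 stood out because its knockout arrays lay on opposite sides of control arrays in the 2 regions by its brighter probe. All 3 were above control in the posterior region (change 0.34) and all 3 below it in the anterior region (-0.52). The difference between these changes was 0.85 (SE 0.20, adjusted p = 0.498 over all probes from limma), so it was not called. The second probe gave 1.16 (SE 0.26, adjusted p = 0.442), and by it the genotypes overlapped in the posterior region.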

How the results depend on the processing

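No called change of a SOX probe reversed under any alternative. Only 9 of the 102 combinations of probe and contrast were called, so most alternative values belong to changes that were not called. Of 2558 alternative values, 2464 kept their direction and side of the threshold or were uncalled throughout. A call was lost in 73, all of them among those 9 combinations, and gained in 21. In the anterior genotype contrast the count of 0 genes became 1 with no background correction, an offset of 50, the series matrix values, trended variances or 1 probe a gene, 3 with array weights, and 0 to 1 with an array left out. On average over the regions the count of 1 (Sox2) became 0 with cyclic loess, either median scaling, no filter, the second probe, the replicate block across genotypes or Xist as a covariate, 2 with array weights, and 0 to 1 with an array left out. The replicate block within genotype left the regional counts at 1 in knockout and 2 in control arrays, where Sox2 was lost (adjusted p = 0.0654 for its brighter probe). Median scaling over all probes took the regional counts to 0 in both genotypes, and array weights took that of control arrays to 5. Under that scaling the median of all probes was -0.461 in the knockout regional contrast and -0.42 on average between genotypes, and 0.154 on average between genotypes with scaling over detected probes. For Sox2, 9 of 24 settings kept the average genotype call (change -1.42 to -0.54), and 16 of 25 kept the regional one in control arrays, which was lost without control anterior replicate 1 or 2 or any of the 3 control posterior arrays. The call of the second Sox21 probe was kept in 9 of 24 settings and that of the dim Sox11 probe in 4 of 23. The count of disagreeing probe pairs was 0 to 2 with an array left out, with 2 without knockout anterior replicate 1. Over all probes, called counts were 38 (0 to 643) for the anterior and 56 (0 to 890) for the average genotype contrast, 0 (0 to 4) for the posterior one, 1164 (31 to 1376) and 686 (103 to 2268) for the regional contrasts in knockout and control arrays, and 1 (0 to 5) for the interaction. With an array left out they were 11 to 54, 3 to 103, 0 to 9, 628 to 1251, 400 to 823 and 0 to 5, in that order. Causes of these shifts were not tested. Probes near the detection limit, such as the dim Sox21 and Sox11 probes, carry only bounds in some groups.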

Other observations

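Eif2s3y, a Y-linked gene, read 8.04, 7.6 and 4.32 in knockout posterior arrays (replicates 1 to 3), against 7.73, 8.67 and 8.52 in control posterior arrays. In the anterior region it read 8.57, 8.83 and 4.37 in knockout arrays, against 7.58, 9.04 and 9.26 in control arrays. Knockout replicate 3 was the low array in both regions, as control replicate 2 was for Xist.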
